A study of Rattus norvegicus with 44 samples.

Results

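The transcripts described here are those of Srebf1, the gene of the lipogenic transcription factor SREBP-1, and of 4 enzymes of fatty acid synthesis, Scd, Fasn, Acly and Me1, in rat liver. They were read from every probe set of the array that the platform annotation gives to exactly 1 of these 5 gene symbols. That rule found 13 probe sets among 8740 (the array without its controls), of which 12 were bright enough to be tested among 6361. Srebf1 had 1 probe set, Scd and Fasn had 2 each, Acly had 3, and Me1 had 5, of which 4 were tested. The fifth Me1 probe set stayed dim in all 11 groups.

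Livers came from male Wistar rats, 8 weeks old, that received compound R1, compound R2 or the vehicle, a citric acid buffer, by oral gavage once a day. Both compounds are known here by code name only. Study 1 gave R1 at 10, 30 or 100 mg/kg/day (4, 3 and 3 arrays) or vehicle (3 arrays) for 24 h. Study 4 gave R2 at 300 mg/kg/day (5 arrays) or vehicle (4 arrays) for 24 h. Study 2 gave R1 at 20 or 100 mg/kg/day (5 and 4 arrays) or vehicle (4 arrays) for 336 h, and study 3 gave R1 at 30 mg/kg/day (4 arrays) or vehicle (5 arrays) for 336 h. Every group was sampled from the left lateral lobe 24 h after the last dose. No label gives a genotype, feeding state or clock time, and none says that numbered arrays of a group came from separate animals, so the p-values rest on the spread among these samples, which may be technical. The number of arrays limits the precision.

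Liver makes fatty acids from carbohydrate when food is plentiful. ATP citrate lyase (Acly) splits exported citrate into cytosolic acetyl-CoA, malic enzyme (Me1) supplies NADPH, fatty acid synthase (Fasn) builds palmitate from both, and stearoyl-CoA desaturase (Scd) places the first double bond. SREBP-1c, made from Srebf1, is switched on by insulin and by the oxysterol receptor LXR and drives these genes, while the related SREBP-2 drives cholesterol synthesis and can also raise lipogenic genes. Me1 is in addition known as a target of the oxidative stress factor NRF2.

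The promoters of the regulator and of 3 enzymes are shown because the transcripts they give moved apart from one another. The sequences come from RefSeq (rat assembly GRCr8, each 300 bases, 250 before to 50 after a transcript start, all on the minus strand). Of the 5 genes 4 had an entry, with 5 windows in all, and the one without was Fasn. Capitals mark matches to 5 motifs searched on both strands, the sterol regulatory element TCACNCCAC, the E-box CACGTG, the CCAAT box CCAAT, the GC box GGGCGG and the core of the antioxidant element TGACNNNGC.
Srebf1, chr10:45518961-45519260: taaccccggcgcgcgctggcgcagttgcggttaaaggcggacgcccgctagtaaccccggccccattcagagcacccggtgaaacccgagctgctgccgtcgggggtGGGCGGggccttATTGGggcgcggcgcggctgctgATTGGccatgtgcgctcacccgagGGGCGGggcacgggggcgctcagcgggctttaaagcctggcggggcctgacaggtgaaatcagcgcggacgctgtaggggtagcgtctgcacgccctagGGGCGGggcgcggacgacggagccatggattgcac
Acly, chr10:85963582-85963881: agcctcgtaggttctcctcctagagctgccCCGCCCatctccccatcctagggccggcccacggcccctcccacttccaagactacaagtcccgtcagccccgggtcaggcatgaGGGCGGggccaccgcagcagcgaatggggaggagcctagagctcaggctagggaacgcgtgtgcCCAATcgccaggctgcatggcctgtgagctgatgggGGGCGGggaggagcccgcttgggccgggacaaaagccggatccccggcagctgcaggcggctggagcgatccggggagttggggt
Scd, chr1:253231682-253231981: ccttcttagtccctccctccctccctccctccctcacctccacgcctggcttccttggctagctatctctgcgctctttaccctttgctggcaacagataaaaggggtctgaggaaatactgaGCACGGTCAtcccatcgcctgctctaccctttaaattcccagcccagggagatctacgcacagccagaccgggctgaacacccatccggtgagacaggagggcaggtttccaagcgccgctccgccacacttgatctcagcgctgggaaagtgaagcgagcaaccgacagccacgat
Me1, chr8:96540195-96540494: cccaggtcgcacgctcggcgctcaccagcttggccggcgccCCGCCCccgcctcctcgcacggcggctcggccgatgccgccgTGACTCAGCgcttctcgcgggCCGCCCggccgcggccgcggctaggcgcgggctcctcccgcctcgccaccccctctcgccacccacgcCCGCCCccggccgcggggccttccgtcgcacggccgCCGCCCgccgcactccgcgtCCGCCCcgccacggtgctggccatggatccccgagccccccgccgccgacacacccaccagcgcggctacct
The Srebf1 window held 2 CCAAT boxes, read as ATTGG 131 and 108 bases before the start, and 3 GC boxes. Its second window, at chr10:45529115-45529414, held 1 CCAAT box and 3 GC boxes. The Acly window held 1 CCAAT box 71 bases before the start and 3 GC boxes. The Me1 window held the antioxidant core TGACTCAGC 167 bases before the start and 5 GC boxes, and the Scd window held only the same core on the other strand, GCACGGTCA, 127 bases before the start. No matches overlapped, and no window held the sterol regulatory element or the E-box as spelled here. Over 33469 rat promoter windows of this length, 37.5% held the CCAAT box, 33.1% the GC box, 12.1% the antioxidant core, 6.42% the E-box and 1.12% the sterol regulatory element, so these matches are a description of the letters and show no bound site.

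Signals below are the authors' array intensities, which are relative within an array, and levels of different probe sets are not compared. A difference is a log2 fold change ± its standard error (SE) from limma, computed on log2(signal + 2.89), so it understates the change of dim transcripts. A called probe set is one with an adjusted p under 0.05 (Benjamini-Hochberg, over all 6361). Groups of so few arrays can lie apart without a call. At R1 30 mg/kg/day for 24 h, 5 probe sets of the 5 genes lay wholly above vehicle and 3 wholly below, with 0 called. The share of all probe sets whose groups lay apart was not counted, so non-overlap is a description only. Arrays of a group correlated between 0.924 and 0.974, and 5 hepatocyte markers summed to 33238 to 42694 in every array. That sum had little room to vary. Every array held the same sorted values, up to 13236, and the markers Alb and Serpina1 averaged 11538 and 12008. Of the 4 adipocyte markers on the array, Lep averaged 85.6, Cfd 22.8, Fabp4 8.13 and Plin1 2.96 over all arrays, the last under the filter level. The median log2 fold change over all probe sets lay between -0.047 and 0.025 in the 13 comparisons, and the values below stand beside that.

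**Figure D1:**
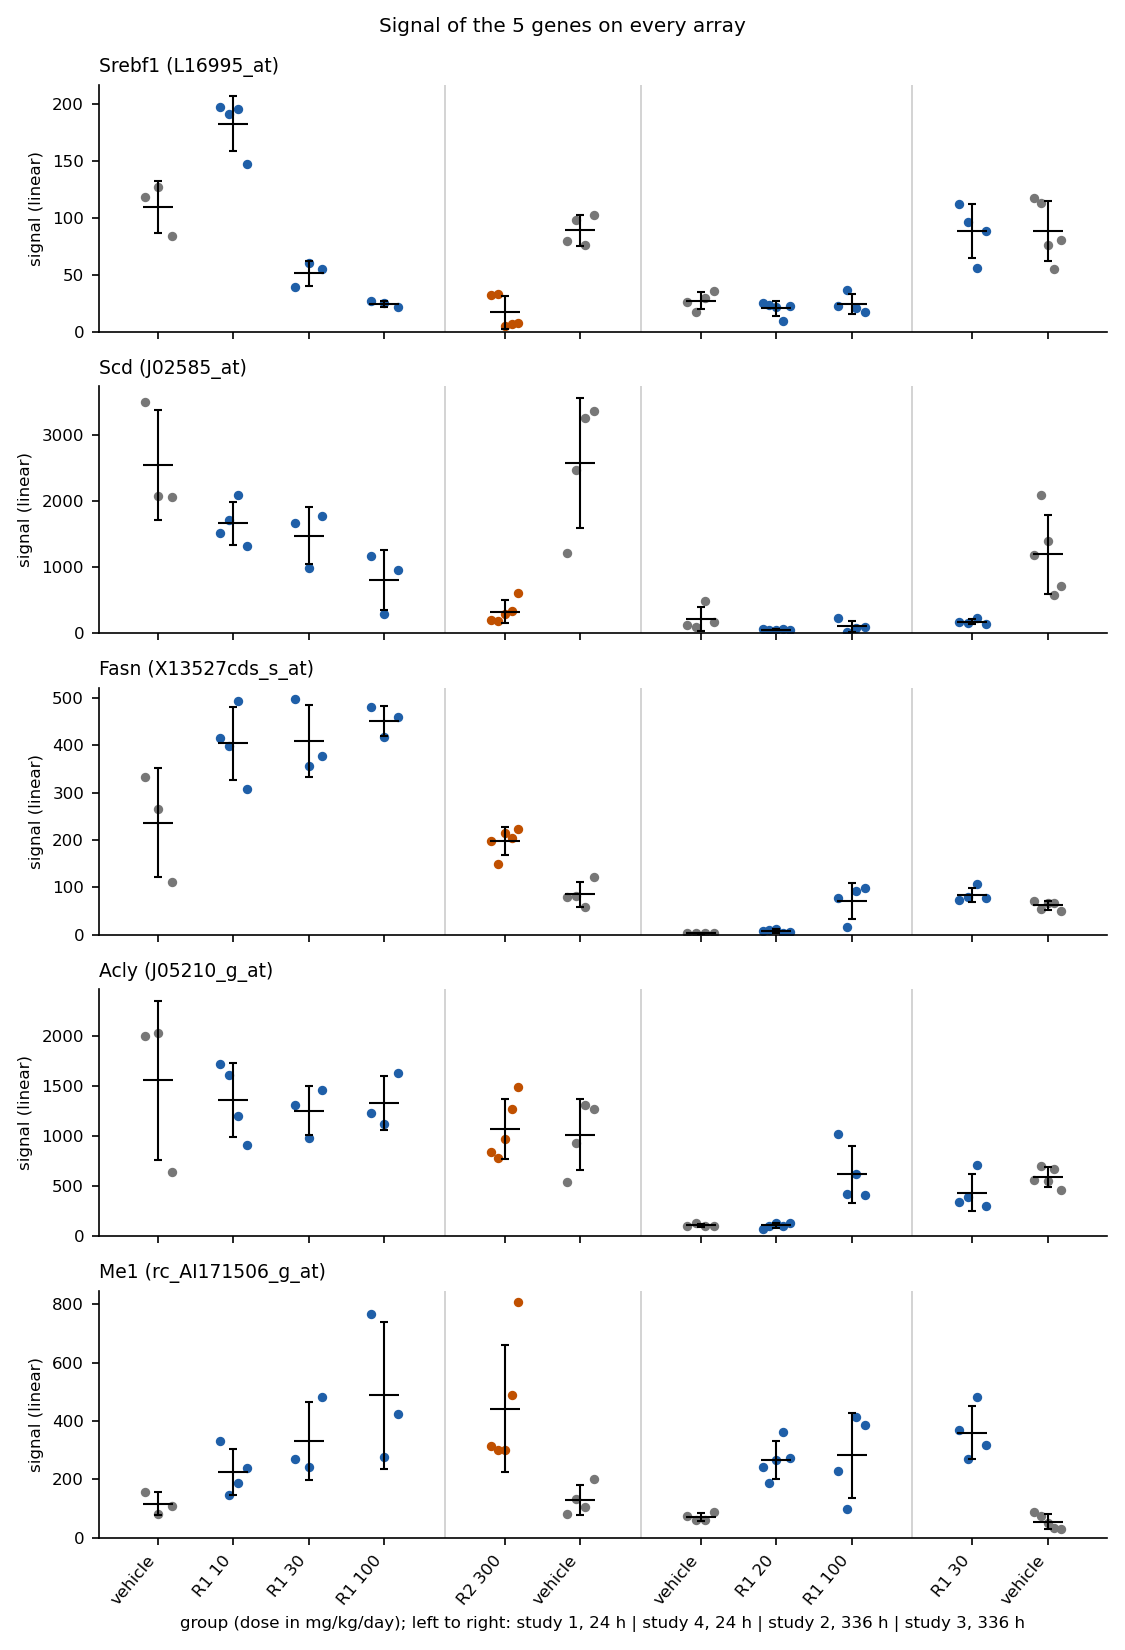
Signal of Srebf1, Scd, Fasn, Acly and Me1 (brightest probe set of each gene, linear axis from 0) on each of the 44 arrays. Points are arrays, the dash is the group mean and the whisker the SD. Blue is R1, orange R2 and grey vehicle. Srebf1 sits between 21.4 and 27.0 at R1 100 mg/kg/day after 24 h, and Fasn lies near 3 in the vehicle arrays of study 2.

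How many of the 12 tested probe sets moved differed with dose, time and study. After 24 h of R1, 0 were called at 10 mg/kg/day (1.24% of all probe sets were called by limma) and 0 at 30 mg/kg/day (1.73% of all), although 3 and 6 had an unadjusted p under 0.05. With study 1 fitted alone, 2 were called at 30 mg/kg/day. At 100 mg/kg/day 4 were higher and 2 lower, where 6.4% of all probe sets were called, and without R1 replicate 1 the count fell to 3. R2 at 300 mg/kg/day left 6 higher and 3 lower, where 15.3% of all were called. After 336 h of R1, 3 were higher and 1 lower at 20 mg/kg/day (4.43% of all), and 2 were called without vehicle replicate 3 or with study 2 fitted alone. In the same study 9 were higher and 0 lower at 100 mg/kg/day (10.3% of all). In study 3, 4 were higher and 2 lower at 30 mg/kg/day (11.3% of all). Probe sets of 1 gene read the same transcript, so these are not counts of genes. The called ones came from 3 genes at R1 100 mg/kg/day for 24 h and 4 with R2. At 336 h they came from 2, 3 and 2 genes at 20, 100 and 30 mg/kg/day. The higher ones were all of Me1 at R1 100 mg/kg/day for 24 h and at 20 and 30 mg/kg/day for 336 h. Of the 12, 4 were of Me1 and 3 of Acly, which weigh most in counts and medians. The median log2 fold change over the 12 was 0.69, 0.56 and 0.79 at 10, 30 and 100 mg/kg/day for 24 h, 0.83 with R2, and 0.34, 1.64 and -0.048 at 20, 100 and 30 mg/kg/day for 336 h.

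**Figure D2:**
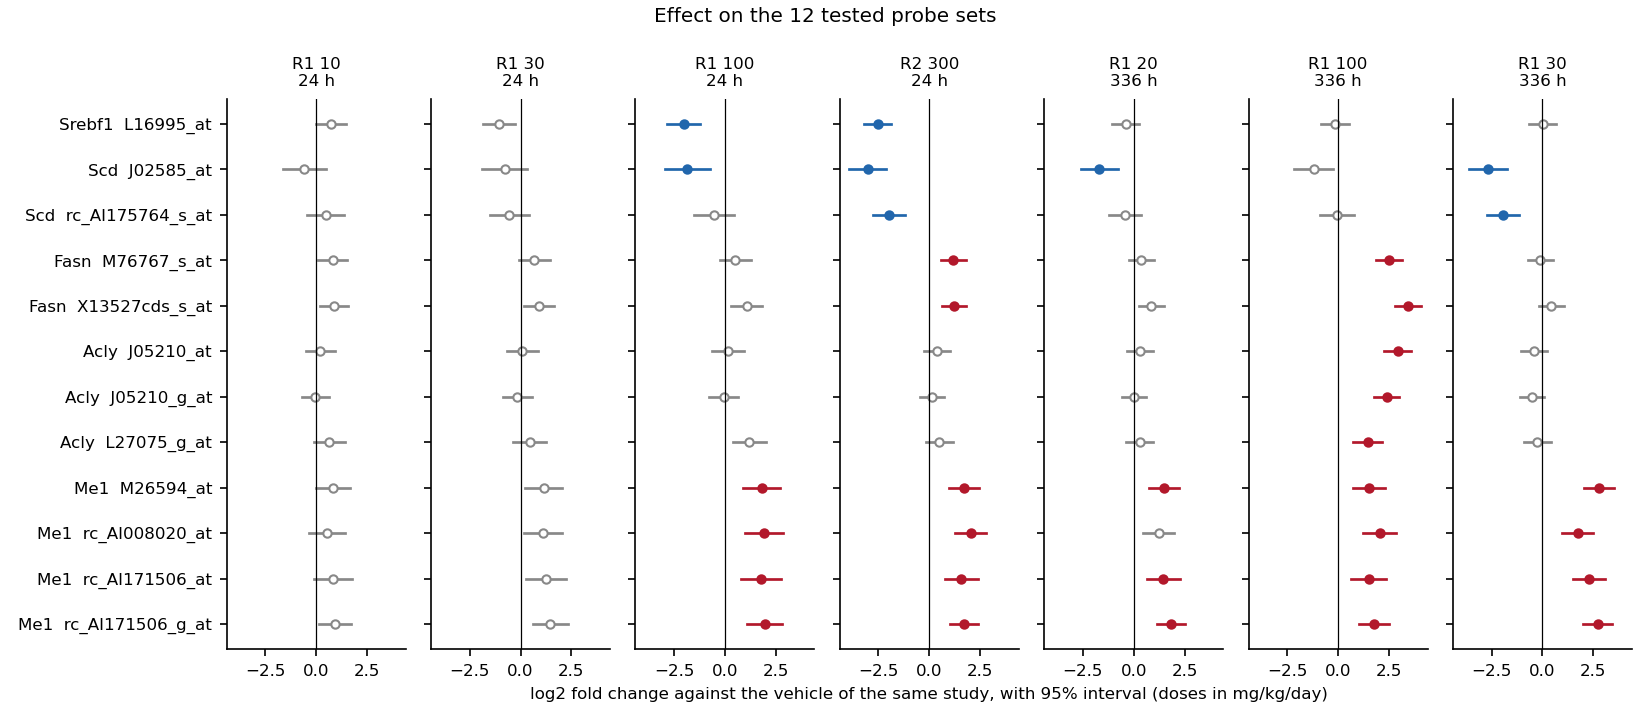
Log2 fold change against the vehicle of the same study for the 12 tested probe sets, with 95% intervals, 1 panel for each treated group (doses in mg/kg/day). Filled red points were called higher, filled blue points lower, and open grey points were not called. Me1 is red in 5 of the 7 panels, Scd is blue in 4, and Acly is red only after R1 100 mg/kg/day for 336 h.

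Srebf1, the regulator, fell after 24 h of the highest dose of each compound and did not pass the test after 336 h of R1 at any dose. In study 1 its signal was 119, 127 and 83.8 in vehicle livers, 198, 191, 196 and 147 at 10 mg/kg/day, 39.1, 60.0 and 55.1 at 30 mg/kg/day and 27.0, 24.8 and 21.4 at 100 mg/kg/day. All arrays at 10 mg/kg/day lay above all vehicle arrays, and all arrays at the other doses lay below them. The difference from vehicle was -2.03 ± 0.40 (adjusted p = 0.000428) at 100 mg/kg/day. It was 0.73 ± 0.37 (adjusted p = 0.524) at 10 mg/kg/day and -1.05 ± 0.40 (adjusted p = 0.242) at 30 mg/kg/day, neither of them called, and with study 1 fitted alone the value at 30 mg/kg/day was called (adjusted p = 0.0181). With the lowest dose above vehicle and the highest below it, the difference between these doses was -2.76 ± 0.37 (adjusted p = 4.53e-06) for 100 over 10 mg/kg/day. That was the only one of the 12 probe sets called in the dose comparison at 24 h, where 3.98% of all probe sets were called; 2 were called with a larger offset before log2.

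With R2, Srebf1 was 31.9, 33.3, 4.79, 6.44 and 7.97 in treated livers, against 79.6, 98.5, 75.8 and 103 in vehicle livers. The groups did not overlap, and 3 of the 5 R2 arrays were far lower than the other 2. Those 3 lay under 9.17, the level used to filter dim probe sets, so the size of the fall is imprecise. The difference was -2.53 ± 0.32 (adjusted p = 1e-07). R1 at 100 mg/kg/day and R2 at 300 mg/kg/day thus stand side by side at -2.03 ± 0.40 and -2.53 ± 0.32, at different doses and in different studies, and were not compared. No single array left out ended either call. In whole tissue, fewer cells that hold a transcript and less of it per cell cannot be told apart. In the same R2 livers the bile duct markers (3 of 5 on the array) summed to 68.6 to 98.9, against 28.6 to 59.7 in vehicle livers, and Epcam among them rose (1.08). The stellate marker Acta2 fell (-1.93), but the stellate sums overlapped (20.3 to 149.8, against 95.1 to 283.6 in vehicle livers). Their part in these results was not tested.

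At 336 h Srebf1 was 26.1, 17.5, 29.3 and 36.0 in vehicle livers of study 2, 25.0, 23.3, 21.4, 9.20 and 22.9 at 20 mg/kg/day and 22.4, 36.7, 20.6 and 17.0 at 100 mg/kg/day. All 3 groups overlapped. The differences from vehicle were -0.39 ± 0.32 and -0.16 ± 0.34 (95% interval of the second -0.86 to 0.53). In study 3 the signal was 113, 96.9, 56.2 and 88.8 at 30 mg/kg/day, against 118, 113, 75.9, 54.9 and 80.3 in vehicle livers, also overlapping, with a difference of 0.012 ± 0.32 (95% interval -0.64 to 0.67). Mean signal at 100 mg/kg/day was 24.2 at 336 h and 24.4 at 24 h, against 27.2 and 109.9 in the vehicles of studies 2 and 1. The effect of 100 mg/kg/day was 1.86 ± 0.52 (adjusted p = 0.0231) higher at 336 h than at 24 h. Each time comes from its own study and vehicle, so time and study cannot be told apart. This call ended without any 1 of 5 arrays, vehicle replicate 1 or 2 or R1 replicate 3 of study 1, vehicle replicate 2 of study 2, or its R1 100 mg/kg/day replicate 2 (adjusted p between 0.0573 and 0.072).

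Over all groups, mean Srebf1 signal was lowest with R2 (16.9 ± 14.4, SD), then in R1 20 mg/kg/day (20.4 ± 6.37) and R1 100 mg/kg/day at 336 h (24.2 ± 8.64), R1 100 mg/kg/day at 24 h (24.4 ± 2.81) and the study 2 vehicle (27.2 ± 7.69). R1 30 mg/kg/day at 24 h followed (51.4 ± 10.9). Next came the study 3 vehicle (88.5 ± 26.6), R1 30 mg/kg/day at 336 h (88.6 ± 23.8), the study 4 vehicle (89.1 ± 13.4), the study 1 vehicle (109.9 ± 23.0) and R1 10 mg/kg/day (183 ± 24.2). Of the 10 neighbouring pairs in this order, 8 overlapped. The study 2 vehicle lay apart from R1 30 mg/kg/day at 24 h, and the study 1 vehicle from R1 10 mg/kg/day.

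Acly, which makes the acetyl-CoA that fatty acids are built from, was not called in any group dosed for 24 h, nor at 20 or 30 mg/kg/day for 336 h, and rose at 100 mg/kg/day for 336 h. Its brightest probe set (J05210_g_at) read 98.0, 133, 103 and 104 in vehicle livers of study 2, 77.7, 100.5, 136, 106 and 133 at 20 mg/kg/day and 1022, 426, 620.3 and 414 at 100 mg/kg/day. All 4 arrays at 100 mg/kg/day lay above every array of the other 2 groups, which overlapped each other. The difference from vehicle at 100 mg/kg/day was 2.38 ± 0.30 (adjusted p = 6.8e-08), a 5.22-fold rise. The other 2 probe sets rose as well, J05210_at by 2.93 ± 0.33 (adjusted p = 4.85e-09) and the dim L27075_g_at by 1.46 ± 0.35 (adjusted p = 0.00271), and with a larger offset the last was 0.90.

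Against 20 mg/kg/day, 100 mg/kg/day raised the 3 Acly probe sets by 2.38 ± 0.29 (J05210_g_at), 2.63 ± 0.32 (J05210_at) and 1.17 ± 0.33 (L27075_g_at). The adjusted p were 3.88e-08, 3.49e-08 and 0.0319. They were 3 of the 5 probe sets called in this comparison, all higher, where 4.07% of all probe sets were called, and the other 2 were those of Fasn. The call of L27075_g_at ended in 9 of the other settings, 6 of them the removal of 1 array (R1 20 mg/kg/day replicate 2, 4 or 5, or R1 100 mg/kg/day replicate 1, 3 or 4), with an adjusted p up to 0.206. At 24 h J05210_g_at differed from vehicle by -0.058 ± 0.33, -0.15 ± 0.35 and -0.067 ± 0.35 at 10, 30 and 100 mg/kg/day of R1, and by 0.12 ± 0.29 with R2. Study 1 vehicle arrays spread widely in Acly (2001, 2037 and 640.1). L27075_g_at differed by 1.20 ± 0.41 (adjusted p = 0.066) at 100 mg/kg/day for 24 h, and was called there with a larger offset (adjusted p = 0.0125) or study 1 fitted alone (0.00896). At 30 mg/kg/day for 336 h J05210_g_at was 343, 388, 710.0 and 303 in treated livers, against 558, 706, 552, 672 and 459.7 in vehicle livers of study 3, a difference of -0.50 ± 0.29 (adjusted p = 0.342) with overlapping arrays.

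Mean Acly signal was lowest in the study 2 vehicle (109 ± 16.1, SD) and R1 20 mg/kg/day at 336 h (111 ± 24.3). R1 30 mg/kg/day at 336 h (436 ± 186), the study 3 vehicle (589.6 ± 99.8) and R1 100 mg/kg/day at 336 h (621 ± 284) came next. The 24 h groups were highest, with the study 4 vehicle (1015 ± 357), R2 (1073 ± 299), R1 30 mg/kg/day (1254 ± 246), R1 100 mg/kg/day (1332 ± 269), R1 10 mg/kg/day (1363 ± 372) and the study 1 vehicle (1559 ± 796). Of 10 neighbouring pairs 9 overlapped, and the gap lay between R1 20 and R1 30 mg/kg/day at 336 h.

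Fasn, the synthase itself, rose with R2 at 24 h and with R1 at 100 mg/kg/day at 336 h. With R2 its brighter probe set (X13527cds_s_at) read 197, 149.9, 214, 205 and 223, against 79.2, 82.6, 59.3 and 122 in vehicle livers. All R2 arrays lay above all vehicle arrays. The difference was 1.21 ± 0.30 (adjusted p = 0.00362), and that of the second probe set (M76767_s_at) was 1.17 ± 0.31 (adjusted p = 0.00564). Srebf1 fell in those same livers. As a description over the 44 arrays, each less the vehicle mean of its study, X13527cds_s_at and Srebf1 had a Pearson correlation of -0.21, over points that share arrays and vehicles.

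In study 1 the brighter Fasn probe set was 334, 265 and 111 in vehicle livers, 414, 399, 494 and 308 at 10 mg/kg/day, 497, 356 and 377 at 30 mg/kg/day and 479.8, 417 and 459 at 100 mg/kg/day. Arrays at 30 and 100 mg/kg/day all lay above the vehicle arrays, of which replicate 3 was the lowest by far. The differences were 0.89 ± 0.35, 0.91 ± 0.37 and 1.06 ± 0.37, none called (lowest adjusted p = 0.0773, at 100 mg/kg/day). The last was called with a larger offset (adjusted p = 0.0419), with study 1 fitted alone (0.0407) or without vehicle replicate 1 (0.0386). Without vehicle replicate 3 the differences were 0.42, 0.44 and 0.60 (adjusted p = 0.476 for the last).

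At 336 h the same probe set was 2.81, 3.30, 2.77 and 2.59 in vehicle livers of study 2, 6.96, 10.2, 13.0, 3.83 and 6.44 at 20 mg/kg/day and 77.8, 16.8, 91.7 and 99.2 at 100 mg/kg/day. The vehicle arrays were all under 9.17, the level used to filter dim probe sets, and the 3 groups did not overlap. At 100 mg/kg/day the difference from vehicle was 3.44 ± 0.32 (adjusted p = 1.86e-11), and M76767_s_at rose by 2.51 ± 0.32 (adjusted p = 8.59e-08). At 20 mg/kg/day the 2 probe sets differed from vehicle by 0.87 ± 0.30 (adjusted p = 0.0999) and 0.38 ± 0.31 (adjusted p = 0.648), and the first was called with a smaller offset (1.17, adjusted p = 0.0253). Between doses, 100 over 20 mg/kg/day gave 2.57 ± 0.30 (adjusted p = 2.13e-08) and 2.13 ± 0.31 (adjusted p = 1.94e-06). In study 3, R1 at 30 mg/kg/day read 72.3, 78.9, 107 and 78.5, against 71.6, 53.5, 67.4, 67.4 and 49.3 in vehicle livers, and the difference of 0.43 ± 0.30 was not called.

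In the livers given 100 mg/kg/day for 336 h the adipocyte marker Fabp4, a fatty acid binding protein, rose too, with a mean of 44.5 against 1.77 in vehicle livers (3.14 ± 0.45, adjusted p = 9.11e-07). It was 1 of 3 tested adipocyte markers (4 of 6 on the array) to do so. The list summed to 76.2 to 191.4 in treated livers, against 80.5 to 150.3 in vehicle livers, and Plin1 stayed under the filter level in every group. Bile duct markers summed to 78.8 to 169.9, against 39.4 to 73.8, the Kupffer cell markers (2 of 5 on the array, only Clec4f tested) to 117.1 to 178.7, against 278.8 to 446.9, and the endothelial markers (4 of 5 on the array) to 77.2 to 127.7, against 141.0 to 174.9. None of these 3 sums overlapped between the groups, whereas stellate markers did (66.1 to 144.5, against 118.7 to 207.9). Over all arrays Epcam led the bile duct sum (mean 44.8, against 15.1 for Krt19 and 6.21 for Spp1). Clec4f led the Kupffer cell sum (218, against 4.33 for Csf1r), and Lyve1 the endothelial sum (62.9, against 28.6 for Kdr). Each sum thus mostly follows its brightest gene. The part of these markers in the Fasn and Acly results was not tested.

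Mean Fasn signal was lowest in the study 2 vehicle (2.87 ± 0.301, SD) and R1 20 mg/kg/day at 336 h (8.09 ± 3.55). The study 3 vehicle (61.8 ± 9.79), R1 100 (71.4 ± 37.5) and R1 30 mg/kg/day at 336 h (84.1 ± 15.3) and the study 4 vehicle (85.8 ± 26.3) overlapped their neighbours. R2 (198 ± 28.6), the study 1 vehicle (237 ± 114), R1 10 (404 ± 76.5), R1 30 (410.0 ± 76.0) and R1 100 mg/kg/day at 24 h (452 ± 31.9) followed, also overlapping in turn. The 3 gaps among 10 pairs lay on either side of R1 20 mg/kg/day and between the study 4 vehicle and R2.

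Over the 2 times, the effect of R1 at 100 mg/kg/day was higher at 336 h than at 24 h for 5 of the 12 probe sets, where 5.3% of all probe sets were called. Beside Srebf1 these were X13527cds_s_at (2.38 ± 0.49, adjusted p = 0.00128) and M76767_s_at (2.00 ± 0.49, adjusted p = 0.00877) of Fasn, and J05210_at (2.78 ± 0.51, adjusted p = 0.000301) and J05210_g_at (2.45 ± 0.46, adjusted p = 0.000477) of Acly. For Srebf1 it was a fall at 24 h (-2.03) that was not called at 336 h (-0.16), and no rise. Mean Srebf1 signal at 100 mg/kg/day was alike at both times (24.4 at 24 h and 24.2 at 336 h). The vehicles differed, with 109.9 in study 1 and 27.2 in study 2. Mean Fasn and Acly signal (brightest probe sets) was 2.87 and 109 in the study 2 vehicle, against 237 and 1559 in the study 1 vehicle. At 100 mg/kg/day it was 71.4 and 621 at 336 h, against 452 and 1332 at 24 h. Each time came from its own study and vehicle, so time and study cannot be told apart. Without vehicle replicate 1 of study 1 the count was 3 and M76767_s_at was 1.46 (adjusted p = 0.0818), and a larger offset gave 1.51 for X13527cds_s_at. For R1 at 30 mg/kg/day the same comparison called 0 of 12 with limma, where 0.959% of all were called, and 5 had an unadjusted p under 0.05.

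**Figure D3:**
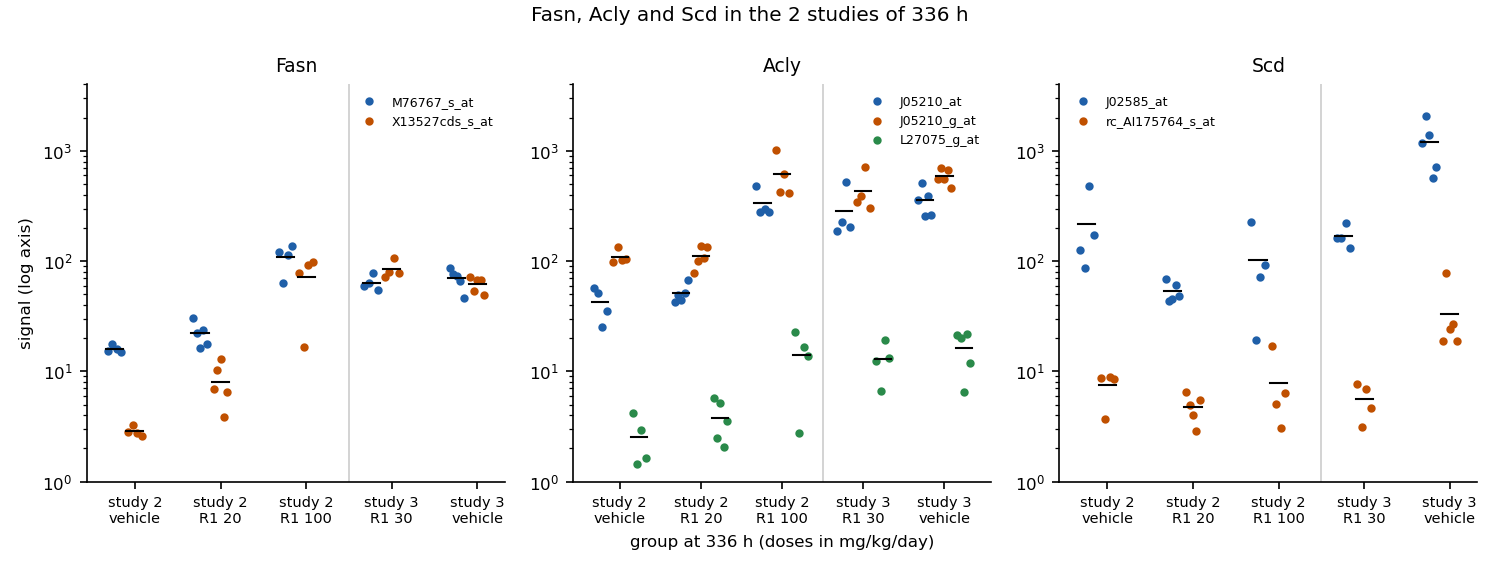
Signal (log axis) of all tested probe sets of Fasn, Acly and Scd in the 5 groups of the studies at 336 h, doses in mg/kg/day. Points are arrays and dashes are group means. In the study 2 vehicle Fasn and Acly sit below the study 3 vehicle, and at R1 100 mg/kg/day in study 2 Acly J05210_g_at lies between 414 and 1022, against 98.0 to 133 in the vehicle of that study.

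The vehicle livers themselves differed between the studies at 336 h. Srebf1, Scd, Fasn and Acly were all higher in the study 3 vehicle than in the study 2 vehicle, with 8 of the 12 probe sets called, all higher, where 17.8% of all probe sets were called. Srebf1 was 118, 113, 75.9, 54.9 and 80.3 in study 3, against 26.1, 17.5, 29.3 and 36.0 in study 2, a difference of 1.59 ± 0.32 (adjusted p = 0.000351). Fasn X13527cds_s_at was 71.6, 53.5, 67.4, 67.4 and 49.3, against 2.81, 3.30, 2.77 and 2.59, and differed by 3.48 ± 0.30 (adjusted p = 9.85e-12). Acly J05210_g_at was 558, 706, 552, 672 and 459.7, against 98.0, 133, 103 and 104, and differed by 2.39 ± 0.29 (adjusted p = 3.18e-08). No study 3 array overlapped a study 2 array for any of these 3 genes, nor for Scd J02585_at (2.60 ± 0.46, adjusted p = 4.29e-05). Me1 was the exception, with 87.0, 75.6, 49.8, 33.6 and 31.0 in study 3, against 75.4, 60.2, 61.9 and 87.4 in study 2, and a difference of -0.44 ± 0.35 (adjusted p = 0.428).

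Of 6 tested genes known to follow feeding and insulin (11 listed), 1 was higher and 2 were lower in the study 3 vehicle than in the study 2 vehicle, and the list's median was -0.061. Irs2 (-0.063), Pck1 (-0.060) and Pdk4 (0.61) were not called. Pklr, a glycolytic enzyme, was higher (1.92 ± 0.37, adjusted p = 0.000146). Lower were Cpt1a (-3.29 ± 0.27, adjusted p = 2.15e-12), the gate of mitochondrial fatty acid oxidation, and Igfbp1 (-2.36 ± 0.51), which insulin represses. From other lists, Gpam (1.91 ± 0.33), the first enzyme of glycerolipid synthesis, and Pnpla3 (1.93 ± 0.57) were higher. In all, 3 of 6 tested genes of triglyceride assembly and acyl-CoA ligation were higher. So were 2 of 7 on the list of regulators, which also holds Pnpla3 and counts it here. So were 1 of 4 enzymes of fatty acid synthesis and desaturation and 1 of 4 genes for acetyl-CoA and NADPH supply. In these lists 0 genes were lower. All 9 tested genes of sterol synthesis were higher too, led by Acat2 (3.40), Sqle (2.49) and Cyp51 (2.35). The stellate marker Acta2 (-2.18) and the endothelial markers Kdr (-0.72) and Lyve1 (-0.78) were lower and Lep higher (0.76). The marker sums overlapped between these vehicles. Stellate markers summed to 40.2 to 206.5 in study 3, against 118.7 to 207.9 in study 2. Endothelial markers summed to 78.5 to 159.1, against 141.0 to 174.9, and adipocyte markers to 118.9 to 197.4, against 80.5 to 150.3. The study, its animals and its arrays cannot be told apart here. In study 2, R1 at 100 mg/kg/day also lowered Cpt1a (-2.64 ± 0.28, adjusted p = 8.37e-10) and Pck1 (-2.25 ± 0.43, adjusted p = 0.000156), the gluconeogenic carboxykinase.

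Between the vehicles of the 24 h studies 1 of the 12 probe sets was called, lower in study 4 than in study 1, where 5.64% of all were called. It was Fasn X13527cds_s_at (79.2, 82.6, 59.3 and 122 in study 4, against 334, 265 and 111 in study 1), with -1.34 ± 0.35 (adjusted p = 0.0127). The call ended without vehicle replicate 1 or 2 of study 1 or vehicle replicate 3 of study 4 (adjusted p up to 0.146), and without study 1 replicate 3 M76767_s_at was called as well (-1.64). Srebf1 differed by -0.28 ± 0.37 and Scd J02585_at by -0.042 ± 0.52.

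Scd, the desaturase, fell with R2 and with R1 at 30 mg/kg/day for 336 h on both probe sets, and on the brighter one alone with R1 at 100 mg/kg/day for 24 h and 20 mg/kg/day for 336 h. With R2 its brightest probe set (J02585_at) was 192, 181, 291, 329 and 613, against 1217, 2468, 3259 and 3357 in vehicle livers, and with R1 at 30 mg/kg/day for 336 h it was 162, 161, 223 and 132, against 1183, 2087, 1402, 571 and 716. Neither pair of groups overlapped. The differences were -3.03 ± 0.46 (adjusted p = 2.91e-06) and -2.67 ± 0.46 (adjusted p = 3.38e-05). The second Scd probe set (rc_AI175764_s_at) fell in both as well, with -2.00 ± 0.39 (adjusted p = 0.000217) and -1.92 ± 0.39 (adjusted p = 0.000459).

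In study 1 Scd J02585_at was 3501, 2077 and 2059 in vehicle livers, 1517, 1718, 2087 and 1324 at 10 mg/kg/day, 1671, 989 and 1775 at 30 mg/kg/day and 1163, 288 and 951 at 100 mg/kg/day. The arrays at 30 and 100 mg/kg/day lay below all vehicle arrays, and replicate 2 at 100 mg/kg/day was the lowest. The differences were -0.59 ± 0.52, -0.78 ± 0.56 and -1.85 ± 0.56 (adjusted p = 0.0333), of which only the last was called. That call ended with no mean-variance trend (adjusted p = 0.0504), as the mean over both probe sets (-1.19, 0.138) and without any 1 of 4 arrays, vehicle replicate 1, 2 or 3 (0.178, 0.0642 and 0.0509) or R1 replicate 2 (-1.23, 0.303). The second probe set gave 0.47 ± 0.45, -0.55 ± 0.48 and -0.54 ± 0.48 at 10, 30 and 100 mg/kg/day, none called (lowest adjusted p = 0.639, at 100 mg/kg/day). At 10 mg/kg/day all its arrays lay above the vehicle arrays.

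In study 2 Scd J02585_at was 127, 87.3, 483 and 172 in vehicle livers, 68.5, 43.5, 45.0, 60.3 and 48.0 at 20 mg/kg/day and 227, 19.1, 72.1 and 92.2 at 100 mg/kg/day. All arrays at 20 mg/kg/day lay below all vehicle arrays, whereas those at 100 mg/kg/day overlapped them. The difference was -1.69 ± 0.46 (adjusted p = 0.0195) at 20 mg/kg/day and -1.20 ± 0.48 (adjusted p = 0.118) at 100 mg/kg/day. The first call ended with study 2 fitted alone (adjusted p = 0.0926), as the mean over both probe sets (-1.05, 0.131) or without vehicle replicate 3 (-1.20, 0.185), the brightest of its group. Without R1 100 mg/kg/day replicate 1 the second was called (-1.72, adjusted p = 0.0138), and without replicate 2 of that group or vehicle replicate 3 it was -0.59 (adjusted p = 0.528) or -0.71 (0.485). The second probe set, dim in this study, gave -0.42 ± 0.39 and -0.058 ± 0.41.

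Mean Scd signal was lowest in R1 20 (53.1 ± 10.9, SD), R1 100 (103 ± 88.3) and R1 30 mg/kg/day at 336 h (169.5 ± 38.4), the study 2 vehicle (217 ± 181) and R2 (321 ± 175). R1 100 mg/kg/day at 24 h (801 ± 456), the study 3 vehicle (1192 ± 603), R1 30 (1478 ± 427) and R1 10 mg/kg/day at 24 h (1661 ± 326) and the vehicles of study 1 (2546 ± 828) and study 4 (2575 ± 989) followed. All 10 neighbouring pairs overlapped. A probe set that the annotation gives to Scd, Scd2, Scd3 and Scd4 together (AF036761_g_at), no member by the rule, fell with R2 (-2.03 ± 0.40, adjusted p = 0.000239) and with R1 at 30 mg/kg/day for 336 h (-2.81 ± 0.40, adjusted p = 1.37e-06). These family members can share signal. A dim Scd2 probe set (rc_AA875269_at) rose at R1 100 mg/kg/day for 336 h (1.44 ± 0.41, adjusted p = 0.0132). Another, M15114_g_at, rose at R1 30 mg/kg/day for 336 h (1.41 ± 0.37, adjusted p = 0.00684), the group in which the shared probe set fell, with overlapping arrays.

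Me1, the malic enzyme, rose in every treated group except R1 at 10 and 30 mg/kg/day for 24 h. In study 1 its brightest probe set (rc_AI171506_g_at) was 158, 82.1 and 109.9 in vehicle livers, 330.3, 146, 188 and 238 at 10 mg/kg/day, 269, 243 and 483 at 30 mg/kg/day and 765, 275 and 423 at 100 mg/kg/day. Arrays at 10 mg/kg/day overlapped the vehicle arrays, and those at 30 and 100 mg/kg/day lay above them. The differences were 0.92 ± 0.40 (adjusted p = 0.416), 1.46 ± 0.42 (adjusted p = 0.065) and 1.96 ± 0.42 (adjusted p = 0.00161). At 30 mg/kg/day M26594_at was called with study 1 fitted alone (adjusted p = 0.0483).

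All 4 tested Me1 probe sets rose at 100 mg/kg/day for 24 h, the others by 1.81 ± 0.45 (M26594_at), 1.90 ± 0.46 (rc_AI008020_at) and 1.77 ± 0.49 (rc_AI171506_at). Without R1 replicate 1 those 3 calls ended (adjusted p = 0.0846, 0.0795 and 0.154), whereas that of rc_AI171506_g_at did not. The call of rc_AI008020_at also ended without vehicle replicate 3 (0.111), and that of rc_AI171506_at without vehicle replicate 2 (0.0866) or R1 replicate 3 (0.0562). With R2 the brightest probe set was 316, 302, 301, 488 and 807, against 82.8, 133, 104 and 202 in vehicle livers, with no overlap, and differed by 1.70 ± 0.35 (adjusted p = 0.000346). All 4 rose with R2, between 1.58 and 2.04.

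At 336 h Me1 was 75.4, 60.2, 61.9 and 87.4 in vehicle livers of study 2, 241, 186, 266, 364 and 272 at 20 mg/kg/day and 230.1, 100.0, 413 and 386 at 100 mg/kg/day. On this brightest probe set (rc_AI171506_g_at) all treated arrays lay above all vehicle arrays, and the 2 doses overlapped. The differences from vehicle were 1.84 ± 0.35 (adjusted p = 0.000331) and 1.77 ± 0.37 (adjusted p = 0.000499), and that between the doses was -0.074 ± 0.35 (95% interval -0.78 to 0.63). Of the 4 probe sets 3 rose at 20 mg/kg/day and rc_AI008020_at gave 1.22 ± 0.38 (adjusted p = 0.0539). The rise of M26594_at there ended with study 2 fitted alone (0.0673), and that of rc_AI171506_at without vehicle replicate 1, 2 or 3 or R1 replicate 4 (adjusted p up to 0.0812). Of 4 rises at 100 mg/kg/day, that of M26594_at ended without R1 replicate 1 (0.0522) and that of rc_AI171506_at without R1 replicate 3 (0.058). In study 3 Me1 was 370.3, 271, 481 and 318 at 30 mg/kg/day, against 87.0, 75.6, 49.8, 33.6 and 31.0 in vehicle livers. The groups lay far apart, and the difference was 2.72 ± 0.35 (adjusted p = 1.32e-07), a 6.57-fold rise. All 4 probe sets rose there, between 1.72 and 2.77.

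Marker sums, which over all arrays are led by the brightest gene of each list, moved beside Scd and Me1 in study 3. With R1 at 30 mg/kg/day bile duct markers summed to 96.2 to 135.7, against 38.6 to 96.4 in vehicle livers, Kupffer cell markers to 146.2 to 215.9, against 284.6 to 363.0, and stellate markers (3 of 5 on the array) to 25.4 to 41.4, against 40.2 to 206.5. In study 2 at 20 mg/kg/day Kupffer cell markers summed to 172.1 to 220.7, against 278.8 to 446.9, stellate markers to 52.8 to 109.7, against 118.7 to 207.9, and endothelial markers to 96.0 to 133.0, against 141.0 to 174.9, all 3 without overlap. Bile duct markers overlapped there (58.4 to 105.9, against 39.4 to 73.8). Their part in these results was not tested. In study 1 at 100 mg/kg/day bile duct markers summed to 36.2 to 50.3, against 35.5 to 48.0, and no marker gene was called.

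Mean Me1 signal was lowest in the vehicles of study 3 (55.4 ± 25.0, SD), study 2 (71.2 ± 12.8), study 1 (117 ± 38.6) and study 4 (130.3 ± 51.7). Every treated group averaged more, R1 10 mg/kg/day at 24 h (226 ± 79.3), R1 20 (266 ± 64.2) and R1 100 mg/kg/day at 336 h (282 ± 146), R1 30 mg/kg/day at 24 h (332 ± 132) and at 336 h (360.0 ± 90.2), R2 (443 ± 218) and R1 100 mg/kg/day at 24 h (488 ± 251). All 10 neighbouring pairs overlapped.

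Other enzymes of the pathway were taken from lists chosen with earlier results of these data known. Of 11 listed enzymes of fatty acid synthesis and desaturation 4 were tested. Elovl5, which lengthens polyunsaturated fatty acids, fell with R1 at 100 mg/kg/day at 24 h (-1.04 ± 0.24, adjusted p = 0.00321), with R2 (-0.87 ± 0.20), and in all 3 groups given R1 for 336 h (-1.04 ± 0.20 at 20, -1.05 ± 0.21 at 100 and -1.59 ± 0.20 at 30 mg/kg/day). Acetyl-CoA carboxylase Acaca, the step before Fasn, was not called in any of the 7 treated groups (-0.60 to 0.32), nor was Acacb. Of 4 tested genes for acetyl-CoA and NADPH supply (7 listed), the pentose phosphate enzyme Tkt rose with R2 (1.06 ± 0.22) and at 336 h at 20 (1.33 ± 0.22), 100 (2.00 ± 0.23) and 30 mg/kg/day (1.21 ± 0.22). Taldo1, of the same pathway, rose in those 3 groups at 336 h (0.71, 0.71 and 0.58). Elovl6, Fads1, Fads2, Thrsp, Srebf2 and Mlxipl were not analysed here.

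The list of regulators, which also holds Pnpla3, had 7 tested genes (13 listed). Insig1 retains SREBPs in the endoplasmic reticulum and is itself a SREBP target. It rose with R1 at 100 mg/kg/day at 24 h (1.26 ± 0.32, adjusted p = 0.0094) and at 336 h (2.22 ± 0.28, adjusted p = 4.46e-08), and Nr1h2 fell in the second group (-0.57 ± 0.18). Nr1h3, an LXR gene as Nr1h2 is, was called in none of the 7 treated groups, and Pnpla3 likewise (-1.59 to 1.14). Of 6 tested genes of triglyceride assembly and acyl-CoA ligation (9 listed), Acsl3 rose with R1 at 30 (1.29 ± 0.28) and 100 mg/kg/day at 24 h (1.41 ± 0.28), with R2 (0.82 ± 0.23) and at 336 h at 100 (1.67 ± 0.24) and 30 mg/kg/day (0.97 ± 0.23). Acsl1 fell at 336 h at 100 (-0.83) and 30 mg/kg/day (-0.57), and Gpam at 30 mg/kg/day (-1.08 ± 0.33). Of 6 tested feeding-responsive genes (11 listed), none was called in a treated group other than Cpt1a and Pck1, given above, and Pklr lay between -1.28 and 0.49. Of 6 tested clock genes (9 listed), Dbp (-1.50) and Per2 (-1.35) fell and Nr1d2 rose (1.05) with R2, Bmal1 fell (-1.69) and Nr1d1 rose (1.54) with R1 at 100 mg/kg/day for 336 h, and Per2 fell (-1.16) with R1 at 30 mg/kg/day for 336 h. Over the 7 treated groups the list medians ran from -0.40 to 0.32 for synthesis enzymes, -0.056 to 0.52 for acetyl-CoA and NADPH supply, -0.38 to 0.12 for regulators, -0.17 to 0.029 for triglyceride assembly, -0.72 to -0.048 for feeding-responsive genes and -0.29 to 0.62 for clock genes.

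Genes of cholesterol synthesis rose in treated livers. Of 9 tested (12 listed), 7, 9 and 9 rose with R1 at 10, 30 and 100 mg/kg/day for 24 h, 9 with R2, and at 336 h 5 at 20, 9 at 100 and 8 at 30 mg/kg/day, and 0 fell. The list's median log2 fold change was 1.42, 2.53 and 3.01 in the first 3 groups and 3.13 with R2, and at 336 h it was 0.82, 3.30 and 1.61 in the order given. Idi1 gave 4.75, Acat2 4.42 and Sqle 3.94 at 100 mg/kg/day for 24 h, in livers where Srebf1 fell. Of the 7 NRF2 targets, all tested, 2, 3 and 6 rose with R1 at 10, 30 and 100 mg/kg/day for 24 h, 7 with R2, and 1, 5 and 4 at 336 h at 20, 100 and 30 mg/kg/day. The list's median was 0.53, 0.96 and 1.38 at 24 h, 1.63 with R2, and 0.54, 1.12 and 0.87 at 336 h. Gpx2, a glutathione peroxidase, had the largest values of this list at 336 h (3.05 ± 0.39, 2.75 ± 0.41 and 4.18 ± 0.39 at 20, 100 and 30 mg/kg/day).

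**Figure D4:**
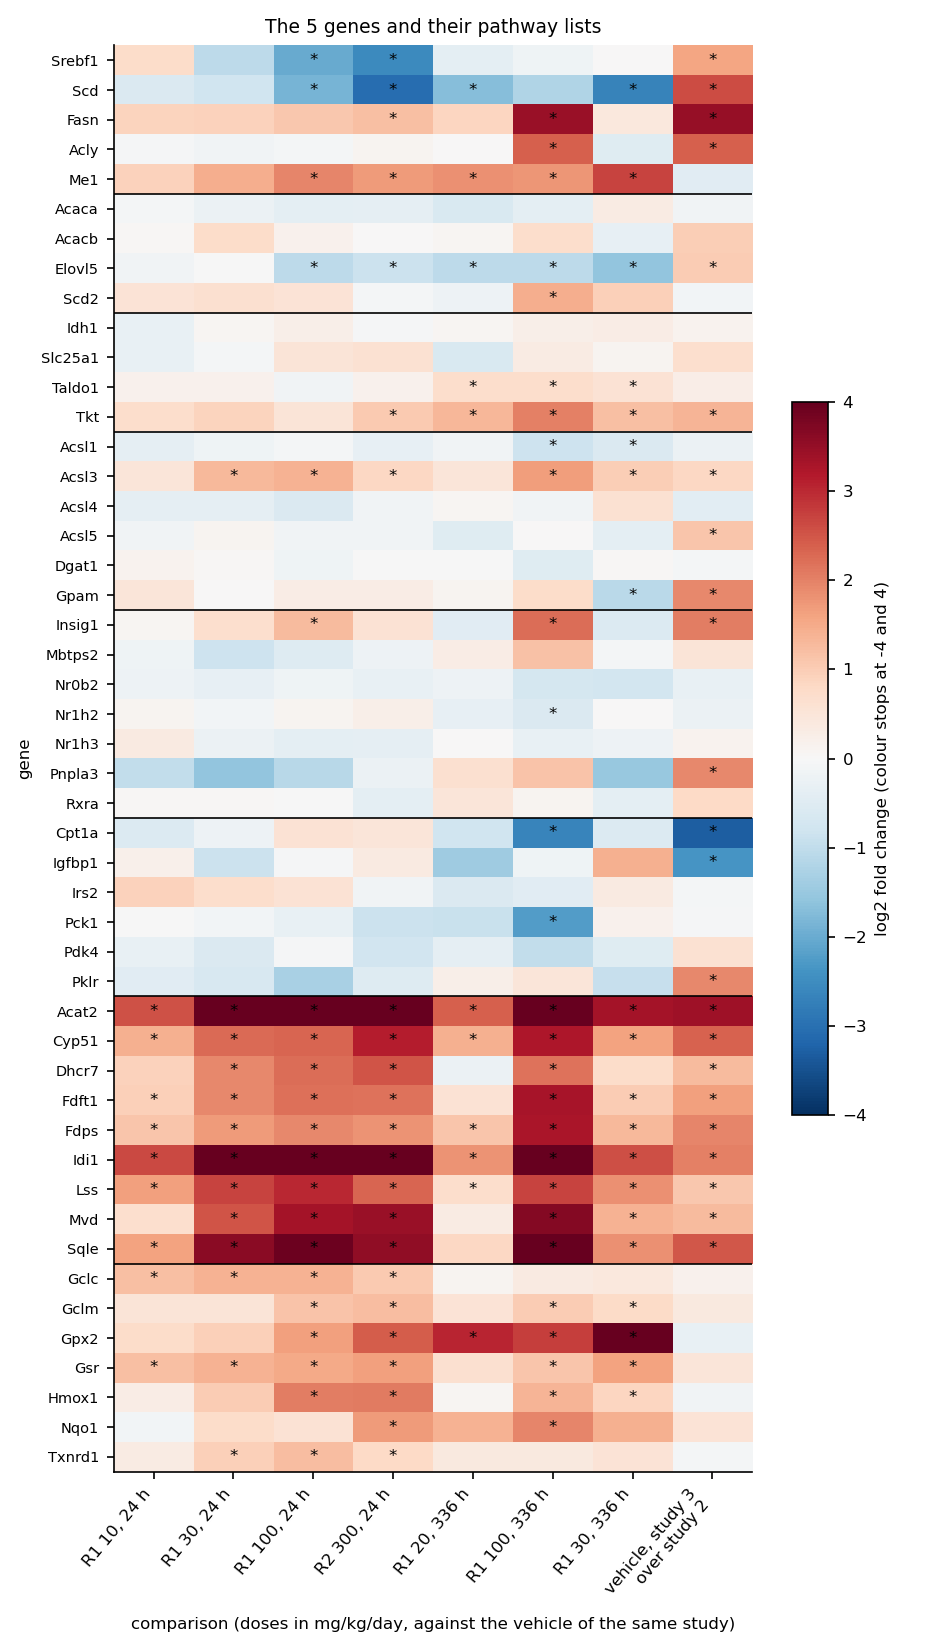
Log2 fold change of the 5 genes (top rows, brightest probe set) and of the tested genes of 7 pathway lists, separated by lines, in the 7 treated groups against the vehicle of their study and, in the last column, in the study 3 vehicle against the study 2 vehicle. Red is higher, blue is lower, colours stop at -4 and 4, and a star marks a called value. The sterol synthesis block is red in the 7 treated groups except Dhcr7 with R1 at 20 mg/kg/day. Srebf1 and Scd are blue where called in the treated groups, and both are red and called in the last column.

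The genes whose pattern was most like each of the 5 were sought by Pearson's r over the 44 arrays, each less the vehicle mean of its study, among 3701 other genes. For Fasn they were Fdps (0.89), Fdft1 (0.84) and Acat2 (0.83), all of cholesterol synthesis. For Acly they were Fasn (0.79), Fabp5 (0.78) and Insig1 (0.70). For Me1 they were Ephx1 (0.85), Ugt2b1 (0.84) and Gpx2 (0.83), which encode enzymes of detoxification. For Srebf1 they were Cth (0.79), Slc37a4 (0.76) and Cldn3 (0.75), and for Scd they were Hsd17b6 (0.75), Avpr1a (0.72) and Khk (0.72), the last a kinase of fructose metabolism. Between members, Srebf1 and Scd gave 0.48, Srebf1 and Acly -0.0062, and Scd and Me1 -0.53. The arrays share vehicles and groups, so these values are descriptions.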

How the data were processed

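Liver RNA was hybridised as biotinylated cRNA to Affymetrix rat arrays, 1 array per sample, 44 in all. The deposited intensity values are MAS5 output, per the labels, and its version is not given in the sources used here. The sorted intensity values of every deposited array were identical, so quantile normalization had been applied across the 44 arrays, which no source used here states, and levels are relative within an array. Of 8799 probe sets 59 controls were left out. The platform annotation gave 7017 probe sets 1 gene symbol, 297 several and 1426 none.

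Before taking log2, 2.89 (percentile 20 of all values) was added to each intensity. Probe sets whose highest group mean reached 9.17 (percentile 40) were tested, 6361 in all, for 3702 named genes. limma 3.58.1 in R 4.3.3 fitted 11 group means with a mean-variance trend and 33 residual degrees of freedom, and p-values were adjusted by Benjamini-Hochberg within a comparison, of which there were 13. A gene of several probe sets is shown by the brightest. Figures were drawn with matplotlib 3.10.9 (Python 3.11.15), and promoters were read with pandas 2.3.3. The procedure was tested on simulated data. Alternatives were other offsets, no filter, no trend, separate fits of each study, a replicate block, median centring, the mean over a gene's probe sets and each array left out. The members, 8 pathway lists, 7 marker lists and rules were chosen with earlier results of these data known. Named genes were all member probe sets, up to 3 called genes per list and comparison, a fixed set of lipogenic genes in any state, and the 3 genes most like each member.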

Additional observations from a re-analysis of the deposited data

Results flagged for a closer look

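Among the groups of 4 or 5 arrays, each of the 13 probe sets was searched for an array far from the rest of its group. Of 104 pairs of probe set and group 10 held one, and chance gives about 1 in 20. Srebf1 was 147 on R1 10 mg/kg/day replicate 4 (others 191 to 198) and 9.20 on R1 20 mg/kg/day replicate 4 at 336 h (others 21.4 to 25.0). Fasn X13527cds_s_at was 16.8 on R1 100 mg/kg/day replicate 2 at 336 h (others 77.8 to 99.2). Acly J05210_at was 485 on replicate 1 of that group (others 279.7 to 299), and Acly L27075_g_at was 86.1 on R1 10 mg/kg/day replicate 3 (others 46.9 to 51.2).

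The dim Scd probe set rc_AI175764_s_at held 3 such arrays, with 34.0 on R2 replicate 5 (others 9.34 to 13.2), 3.72 on study 2 vehicle replicate 2 (others 8.48 to 8.83) and 77.8 on study 3 vehicle replicate 2 (others 19.0 to 26.7). Me1 rc_AI008020_at was 106 on study 4 vehicle replicate 4 (others 41.6 to 42.2). The untested Me1 rc_AI171067_at was 1.49 on R1 10 mg/kg/day replicate 4 (others 9.24 to 10.7).

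The effect of R1 at 100 mg/kg/day on 5 probe sets was higher at 336 h than at 24 h by the test of the difference itself. The log2 differences were 1.86 for Srebf1 (adjusted p = 0.0231), 2.00 and 2.38 for Fasn M76767_s_at and X13527cds_s_at (0.00877 and 0.00128), and 2.78 and 2.45 for Acly J05210_at and J05210_g_at (0.000301 and 0.000477). For Srebf1 the value comes from a fall at 24 h (-2.03), against -0.16 at 336 h, and from no rise. Its treated means were alike (24.4 at 24 h and 24.2 at 336 h), whereas the vehicles stood at 109.9 and 27.2. Each time came from its own study, so time and study cannot be told apart.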

How the results depend on the processing

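No called value of the 5 genes turned its direction under any alternative run, over 156 results, 1072 values under other settings and 1380 values leaving out 1 array. Among values uncalled in both fits, 15 and 77 changed sign. Of the member probe sets, 2 were called for R1 100 over 10 mg/kg/day with a larger offset and with a replicate block, 1 with the block and 2 with the study fitted alone for R1 30 mg/kg/day at 24 h, and 2 with the study fitted alone for R1 20 mg/kg/day. Leaving out 1 array, member counts ran from 3 to 6 for R1 100 mg/kg/day at 24 h, 2 to 5 for R1 20 mg/kg/day, 3 to 5 for the difference of the 100 mg/kg/day effect between times and 0 to 2 for the vehicles of study 4 and study 1. Counts over all probe sets then ran from 37 to 95 (R1 10 mg/kg/day), 73 to 110 (R1 30 mg/kg/day, 24 h), 263 to 376 (R1 100 mg/kg/day, 24 h), 453 to 672 (R1 30 mg/kg/day, 336 h), 124 to 276 (R1 100 over 10 mg/kg/day), 30 to 61 (R1 30 mg/kg/day effect between times) and 193 to 291 (vehicles of study 4 and study 1). Same-numbered arrays of a study had deviations correlating between -0.09 and 0.15. The mean was 0.029 and 0.051 in studies 1 and 2, against -0.012 and -0.014 for arrays of other numbers. In studies 3 and 4 it was -0.017 and -0.015, against 0.0047 and 0.0041. Deviations from a group mean cancel within the group. The mean for other numbers is therefore tied to that for the same number and is no reference level for pairing. No label says whether a number stands for a shared block. The replicate block (18 residual degrees of freedom) ended no call of a member probe set and added Me1 rc_AI171506_g_at for R1 30 mg/kg/day at 24 h (adjusted p = 0.00619) and for 100 over 10 mg/kg/day (0.0443), Acly L27075_g_at for 100 mg/kg/day at 24 h (0.049) and Scd J02585_at for 100 mg/kg/day at 336 h (0.0489). It moved no other member count by over 1.5 times and was not run for vehicles, nor was each study alone for comparisons across studies. With a larger offset Acly L27075_g_at was 1.08 between the vehicles at 336 h. Dim probe sets limit precision for Fasn and the second Scd probe set in study 2, as does the number of arrays throughout.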
